A study of Homo sapiens with 8 samples.

Results

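The transcription factors SNAI1, SNAI2, ZEB1, ZEB2 and TWIST1, the cadherins CDH1, CDH2 and CDH3, the intermediate filament gene VIM and the fibronectin gene FN1 were followed across 4 culture conditions of the human cell line KYSE150, which comes from a squamous cell carcinoma of the esophagus. They were taken by symbol from a table of read counts per gene, and all 10 had a row among the 61517 genes listed. The 8 libraries of poly(A)-selected RNA formed 4 groups of 2: hypoxia with sodium oxamate and sodium lactate, hypoxia with sodium oxamate, hypoxia without either compound, and normoxia. Oxamate is an inhibitor of lactate dehydrogenase, the enzyme that makes lactate from pyruvate. All groups came from the 1 cell line, grown in RPMI-1640 with serum. NALA in the sample labels was taken to mean sodium lactate, which the treatment protocol names. Dose, duration and oxygen level were each not given in the sources used here. No label says that replicates were separate cultures, so p-values measure only how far these libraries spread, and that spread may be technical. Groups are called lactate-added, oxamate, hypoxia and normoxia below, and the first 3 of these were all kept in hypoxia.

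In epithelial cells E-cadherin (CDH1) and P-cadherin (CDH3) join neighbouring cells at adherens junctions through catenins. During an epithelial-mesenchymal transition, SNAI1, SNAI2, ZEB1, ZEB2 and TWIST1 act on the genes of junction proteins, and the first 4 are known as repressors that bind E-boxes in the CDH1 promoter. N-cadherin (CDH2), vimentin (VIM) and fibronectin (FN1) are the genes usually read as mesenchymal. Squamous carcinoma cells often hold SNAI2 together with CDH1, a mixed state called partial EMT.

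Values are read counts relative to the TMM-scaled library size (CPM), shown for replicate 1 and then replicate 2, or fitted log2 fold changes ± standard error. Adjusted p-values are from edgeR's quasi-likelihood test over 15554 genes, and a gene rose or fell where its adjusted p was under 0.05. Total counts were between 21845676 and 29406061 per library, so a floor of 3 counts lay between 0.102 and 0.137 CPM of these totals. The chi-square between replicates, per degree of freedom, was 1.84 to 2.09 in 3 groups and 4.78 in the lactate-added group, more than sampling noise gives. All 13 squamous epithelial markers passed the expression filter, and their summed level was between 2777 and 4465 CPM of the library totals. Among them KRT4 and SOX2 were low, with at most 34 and 12 counts in a library. Of 8 fibroblast markers 1 passed, their sum lay between 0.714 and 1.24 CPM in the lactate-added and oxamate libraries, at 8.69 and 8.97 CPM in hypoxia and at 2.69 and 3.02 CPM in normoxia, and COL3A1, DCN, PDGFRA and THY1 were at 0 in every library. Endothelial, leukocyte and melanocyte marker sums stayed between 0.0855 and 2.86 CPM.

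CDH1, CDH3 and VIM were at their highest in hypoxia, whereas SNAI1, SNAI2, ZEB1 and TWIST1 were at their highest in the lactate-added libraries and FN1 in the oxamate libraries. In hypoxia against normoxia, CDH1, CDH3, VIM, FN1 and TWIST1 rose, SNAI2 and ZEB1 fell, and SNAI1 did not pass, where 73.5% of all tested genes passed. With oxamate against hypoxia, FN1 and ZEB1 rose and CDH1, CDH3, VIM and SNAI2 fell, where 80.5% of all tested genes passed. When lactate was added to oxamate, SNAI2, ZEB1, TWIST1 and CDH1 rose and CDH3 and FN1 fell, where 64.9% of all tested genes passed. Against hypoxia alone, the lactate-added libraries were higher in SNAI2, ZEB1, TWIST1 and FN1 and lower in CDH1, CDH3 and VIM, where 78.6% of all tested genes passed. Of the 8 genes that passed the expression filter, SNAI1 did so through the lactate-added libraries alone, and its fitted values against them are not read as a test. Of the other 7 genes these calls cover 7, 6, 6 and 7, and beside such shares nothing is read from the counts. The hypoxia group enters 3 of the 4 comparisons and the oxamate and lactate-added groups 2 each, so the comparisons are not independent.

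**Figure D1:**
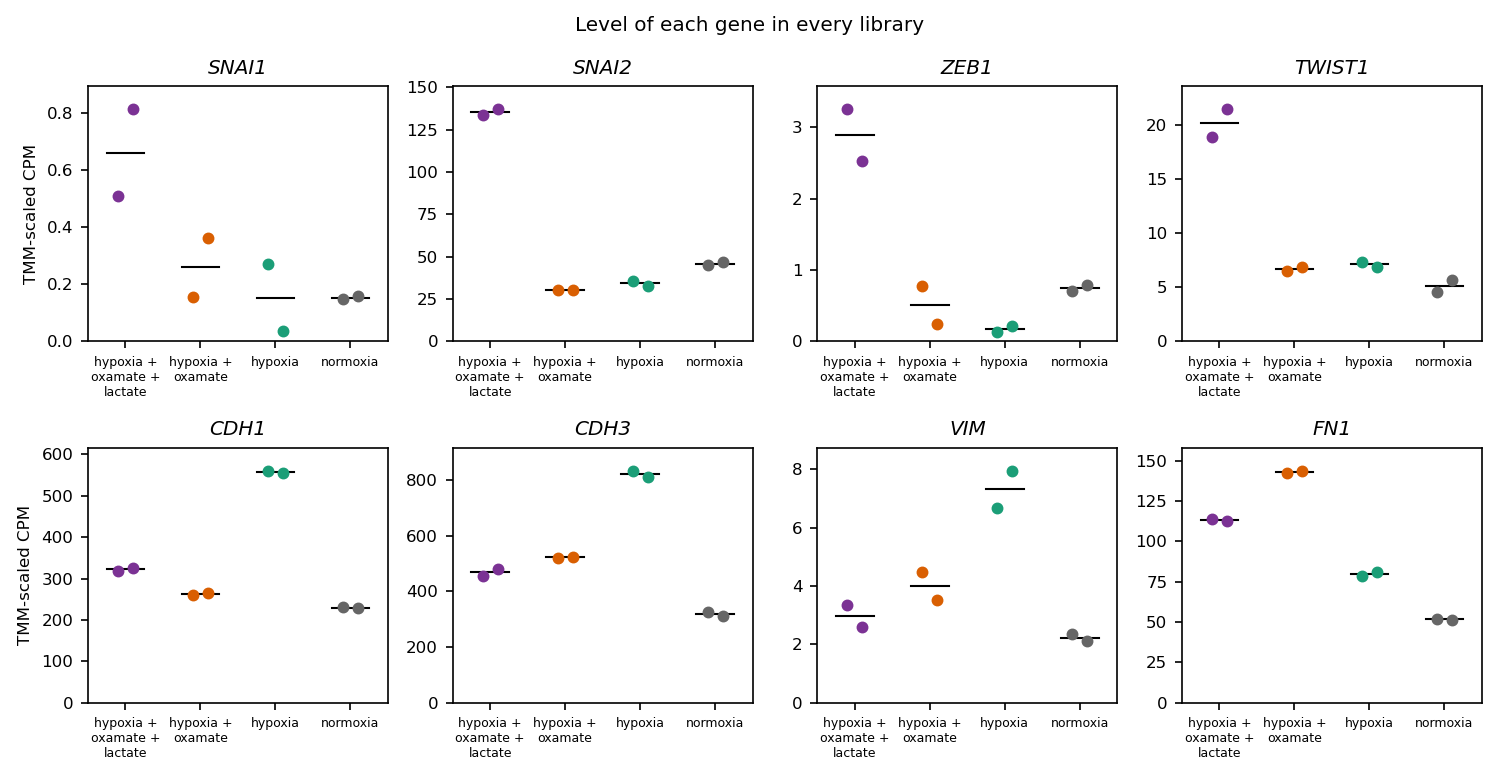
TMM-scaled CPM of the 8 genes that passed the expression filter, 1 panel per gene with its own linear axis from 0, for the lactate-added, oxamate, hypoxia and normoxia libraries. Each point is 1 library and each bar the mean of 2. SNAI2 lies at 133 and 137 CPM in the lactate-added libraries and at 46.5 CPM or less in all others, and CDH1 lies at 561 and 555 CPM in hypoxia and at 326 CPM or less in all others.

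SNAI2 (SLUG, ENSG00000019549, chromosome 8:48917604-48921740, minus strand, GRCh38 with GENCODE 29) was the most abundant of the transcription factors. It had 133 and 137 CPM in the lactate-added libraries, 30.2 and 30.0 CPM in the oxamate libraries, 35.5 and 32.9 CPM in the hypoxia libraries and 44.9 and 46.5 CPM in the normoxia libraries. The 4 groups did not overlap, and the lactate-added libraries stood apart from all others. The group means were 135 ± 2.59 CPM with lactate added and 30.1 ± 0.127 CPM with oxamate (SD, n = 2 libraries each), a log2 fold change of 2.17 ± 0.050 (4.50-fold, adjusted p = 1.41e-19). Against hypoxia the lactate-added level was 3.95-fold higher (log2 1.98 ± 0.049, adjusted p = 1.39e-19). Hypoxia itself was lower than normoxia by a small margin, with a log2 fold change of -0.42 ± 0.053 (adjusted p = 2.47e-07). Oxamate against hypoxia gave -0.19 ± 0.057 (adjusted p = 0.00525), a change as small as the shift in the median of all tested genes, which was -0.20. That last call was lost with RLE scaling (-0.10, adjusted p = 0.101), with DESeq2 (-0.10, adjusted p = 0.233), in a fit of these 2 groups alone (-0.081, adjusted p = 0.209) and on leaving out hypoxia replicate 1 or either oxamate replicate.

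TWIST1, a basic helix-loop-helix factor (ENSG00000122691, chromosome 7:19020991-19117672, minus strand), was high in the same libraries. Its level was 18.9 and 21.4 CPM with lactate added, 6.50 and 6.84 CPM with oxamate, 7.33 and 6.90 CPM in hypoxia and 4.54 and 5.69 CPM in normoxia. The lactate-added libraries again lay far above the rest, while oxamate and hypoxia lay next to each other. Lactate added to oxamate gave a log2 fold change of 1.60 ± 0.11 (3.03-fold, adjusted p = 3.55e-11), and the lactate-added level was 2.84-fold above hypoxia (1.51 ± 0.11, adjusted p = 3.65e-11). TWIST1 was 1.38-fold higher in hypoxia than in normoxia (0.47 ± 0.13, adjusted p = 0.00253). Without normoxia replicate 1 this was 0.32 with an adjusted p of 0.0729. Between oxamate and hypoxia the log2 difference was -0.09, with a 95% interval of -0.36 to 0.17 and an adjusted p of 0.499. SNAI2 and TWIST1 did not keep a fixed proportion: per kilobase of exon, SNAI2 was 4.23 and 3.83 times TWIST1 with lactate added, 2.78 and 2.63 times with oxamate, 2.90 and 2.86 times in hypoxia and 5.93 and 4.90 times in normoxia.

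SNAI1 (SNAIL, ENSG00000124216, chromosome 20:49982999-49988886, plus strand), whose protein is known for rapid turnover after GSK3B phosphorylation, was close to the limit of detection. It had 10 and 20 counts in the lactate-added libraries, 4 and 9 in the oxamate libraries, 8 and 1 in the hypoxia libraries and 4 and 5 in the normoxia libraries. Both lactate-added libraries were above all others, and the other 3 groups overlapped. Pooled over replicates, the ratio of scaled counts was 4.36 for lactate added against hypoxia (95% counting interval 2.02 to 10.5, Clopper-Pearson, counting error only), 2.64 for lactate added against oxamate (1.34 to 5.51) and 1.65 for oxamate against hypoxia (0.654 to 4.38). Only the 2 lactate-added libraries reached the expression cutoff of 0.369 CPM, so SNAI1 was in the fit because it was high there, and the ratios to that group are a description with no test. The fitted log2 fold change of lactate added against hypoxia was 2.08, and it was 1.29 without hypoxia replicate 2, 1.69 without lactate-added replicate 2 and 4.08 without hypoxia replicate 1. Between hypoxia and normoxia the pooled ratio was 1.01 (0.356 to 2.87).

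ZEB1 (ENSG00000148516, chromosome 10:31318495-31529814, plus strand), a zinc finger and homeodomain repressor, is best known in epithelial cells as a target of the miR-200 family and of miR-205, which bind its mRNA. MicroRNAs were not measured here, and only the long RNAs that contain miR-200c with miR-141 (MIR200CHG) and miR-205 (MIR205HG) have counts. The mature microRNAs from RefSeq (GRCh38.p14) are shown because their seeds, bases 2 to 8 in capitals, define the sites in ZEB1. The first line below shares its seed with miR-200b-3p and miR-429, and the next with miR-200a-3p.
hsa-miR-200c-3p: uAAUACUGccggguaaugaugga
hsa-miR-141-3p: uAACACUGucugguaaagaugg
hsa-miR-205-5p: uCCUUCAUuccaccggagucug

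The ZEB1 3′ untranslated region of transcript ENST00000361642, with 2549 bases, was searched on its sense strand for the 7-letter complement of each seed. It held 6 matches to CAGTATT, 3 to CAGTGTT and 1 to ATGAAGG, and these motifs do not overlap each other there. Of 2961 annotated 3′ untranslated regions of like length (within 25%), that of ZEB1 included, 25.5% held CAGTATT at least once. It was held 6 times or more by 0.0338%, a share in which the ZEB1 region itself is counted. CAGTGTT was held by 28.8% and ATGAAGG by 18.3%. The 6 CAGTATT sites, with the match in capitals, are on the plus strand of GRCh38.
chr10:31527618-31527640: attgttttatcttatCAGTATTa
chr10:31527712-31527734: atgctaaatccgcttCAGTATTt
chr10:31528141-31528163: gtaagtgccatttctCAGTATTt
chr10:31528492-31528514: ctgatttttacctatCAGTATTa
chr10:31528562-31528584: tgtcttcaaacctggCAGTATTa
chr10:31529213-31529235: tcttttcatcattatCAGTATTt
The miR-205 match lies upstream of chr10:31528141-31528163 among these sites.
chr10:31528067-31528089: aatatgtggtaacatATGAAGGa

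ZEB1 mRNA was scarce in every library and scarcest in hypoxia. It had 64 and 62 counts in the lactate-added libraries, 20 and 6 in the oxamate libraries, 4 and 6 in the hypoxia libraries and 19 and 25 in the normoxia libraries, or 3.25 and 2.53 CPM, 0.774 and 0.243 CPM, 0.136 and 0.211 CPM and 0.707 and 0.790 CPM in that order of groups. The lactate-added libraries were above all others, the hypoxia libraries below all others, and the oxamate and normoxia libraries overlapped. ZEB1 fell in hypoxia against normoxia by 2.09 ± 0.54 on the log2 scale (adjusted p = 0.00145), and the ratio of pooled counts was 0.230 (95% counting interval 0.103 to 0.463). It rose with lactate added, by 2.48 ± 0.41 against oxamate (5.58-fold, adjusted p = 1.31e-05) and by 4.02 ± 0.47 against hypoxia (16.2-fold, adjusted p = 8.45e-08). The last of these is the largest change of any of the 8 tested genes in the 4 comparisons, with a counting interval of 8.68 to 35.2 around a pooled ratio of 16.5. The rise with oxamate against hypoxia (1.54 ± 0.58, adjusted p = 0.0191) rested on oxamate replicate 1: without that library it was 0.59 (adjusted p = 0.478), without oxamate replicate 2 it was 2.24 (adjusted p = 0.00112), and without hypoxia replicate 1 it was 1.26 (adjusted p = 0.122). Lactate added against oxamate was 3.44 without oxamate replicate 1 and 1.79 without oxamate replicate 2, and both passed.

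The antisense RNA ZEB1-AS1 overlaps 4.23% of the ZEB1 exon bases on the opposite strand and had 263% of its counts, with strand use in counting not given in the sources used here. ZEB1-AS1 had 1.37 and 1.18 CPM with lactate added, 0.426 and 0.243 CPM with oxamate, 5.84 and 6.12 CPM in hypoxia and 2.12 and 2.09 CPM in normoxia. It was thus highest where ZEB1 was lowest: it rose in hypoxia against normoxia by 1.51 ± 0.20 (adjusted p = 8.04e-07), whereas ZEB1 fell. The antisense RNA fell with oxamate against hypoxia (-4.13 ± 0.28, adjusted p = 6.35e-12) and was lower with lactate added than in hypoxia (-2.23 ± 0.23, adjusted p = 9.29e-09), where ZEB1 was higher. With lactate added to oxamate it rose (1.90 ± 0.35, adjusted p = 5.10e-05), in the same direction as ZEB1. The part of reads from one gene in the count of the other was not tested. MIR200CHG was also highest in hypoxia, at 0.763 and 0.652 CPM with lactate added, 0.658 and 0.931 CPM with oxamate, 2.04 and 1.97 CPM in hypoxia and 0.484 and 0.601 CPM in normoxia. It rose in hypoxia against normoxia (1.87 ± 0.34, adjusted p = 4.32e-05), fell with oxamate against hypoxia (-1.33 ± 0.33, adjusted p = 0.00094), and did not pass between lactate-added and oxamate libraries (-0.17 ± 0.39, adjusted p = 0.718). MIR205HG was lowest with lactate added, at 30.1 and 28.6 CPM, against 47.5 and 47.4 CPM with oxamate, and had 54.3 and 53.5 CPM in hypoxia and 40.4 and 43.2 CPM in normoxia. It fell with lactate added to oxamate by 0.70 ± 0.059 on the log2 scale (adjusted p = 5.89e-10). Host RNA levels are not levels of the mature microRNAs, and their part in the ZEB1 result was not tested.

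**Figure D2:**
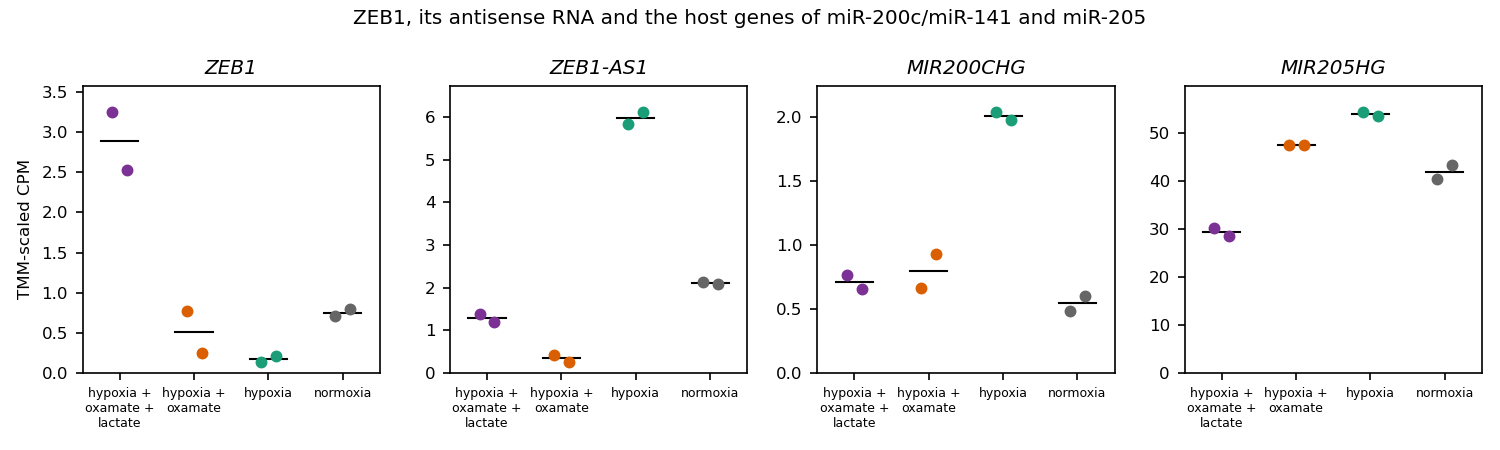
TMM-scaled CPM of ZEB1, its antisense RNA ZEB1-AS1 and the long RNAs that contain miR-200c with miR-141 and miR-205, on linear axes from 0, for the lactate-added, oxamate, hypoxia and normoxia libraries. Points are libraries and bars are means of 2. ZEB1 is lowest in hypoxia, at 0.136 and 0.211 CPM, where ZEB1-AS1 and MIR200CHG are highest, at 5.84 and 6.12 CPM and at 2.04 and 1.97 CPM.

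ZEB2 (ENSG00000169554, chromosome 2:144364364-144524583, minus strand), the paralog of ZEB1, and CDH2 (ENSG00000170558, chromosome 18:27950966-28177446, minus strand) were not detectable as expressed at this depth. ZEB2 had 2 and 0 counts with lactate added, 1 and 1 with oxamate and 0 in all hypoxia and normoxia libraries. CDH2 had 2 and 0 counts with lactate added, 0 and 0 with oxamate, 1 and 0 in hypoxia and 1 and 1 in normoxia. All of these group sums are under a floor of 3 counts per group, which corresponds to 0.0679 CPM with lactate added, 0.0594 CPM with oxamate, 0.0518 CPM in hypoxia and 0.0513 CPM in normoxia, so no fold change is given. The ZEB2 3′ untranslated region of transcript ENST00000627532 (5370 bases) held 5 matches to CAGTATT and 4 to CAGTGTT, motifs that 45.1% and 51.2% of 1445 regions of like length held at least once. As many matches or more were held by 0.138% and 1.31% of these regions, in which that of ZEB2 itself is counted.

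CDH1 (ENSG00000039068, chromosome 16:68737225-68835548) and CDH3 (ENSG00000062038, chromosome 16:68636189-68722616) lie on the plus strand of chromosome 16 with 14608 bases between them, and both were abundant in every library. CDH1 had 318 and 326 CPM with lactate added, 259 and 265 CPM with oxamate, 561 and 555 CPM in hypoxia and 230.2 and 229 CPM in normoxia. CDH3 had 457 and 482 CPM with lactate added, 519.7 and 525 CPM with oxamate, 834 and 813 CPM in hypoxia and 324 and 313 CPM in normoxia. No group of either gene overlapped another, and hypoxia was the highest and normoxia the lowest for both. In hypoxia against normoxia CDH1 rose 2.43-fold (log2 1.28 ± 0.030, adjusted p = 6.91e-20) and CDH3 rose 2.59-fold (1.37 ± 0.032, adjusted p = 6.21e-20). Thus E-cadherin mRNA was not lower in hypoxia, and CDH2 was under the floor in all 4 groups.

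The cadherins parted under the compounds. With oxamate CDH1 averaged 262 ± 3.82 CPM, against 558 ± 3.85 CPM in hypoxia, a log2 fold change of -1.09 ± 0.030 (adjusted p = 6.07e-19). CDH3 averaged 523 ± 3.96 CPM with oxamate, against 823 ± 15.02 CPM in hypoxia (SD, n = 2 libraries each), a smaller decrease of -0.66 ± 0.031 (adjusted p = 1.12e-14). With lactate added to oxamate CDH1 rose by 0.30 ± 0.031 (adjusted p = 1.45e-08), while CDH3 fell by 0.15 ± 0.032 (adjusted p = 0.000201). Upper quartile scaling, which moves the median of all genes in this comparison by -0.19, put the CDH1 rise at 0.11 (adjusted p = 0.00475). Per kilobase of exon, CDH3 was 1.42 and 1.47 times CDH1 with lactate added, 1.98 and 1.96 times with oxamate, 1.47 and 1.45 times in hypoxia and 1.40 and 1.35 times in normoxia. This ratio was thus highest in both oxamate libraries. Against hypoxia the lactate-added libraries were lower in both, by -0.79 ± 0.030 for CDH1 and -0.81 ± 0.032 for CDH3 (adjusted p = 2.16e-16 and 3.92e-16). SNAI2, ZEB1 and TWIST1 were highest in the lactate-added libraries, where CDH1 was also higher than with oxamate and than in normoxia. The part of these factors in the cadherin levels was not tested.

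VIM (ENSG00000026025, chromosome 10:17228259-17237593, plus strand), the intermediate filament protein of mesenchymal cells, was low throughout. Its level was 3.36 and 2.61 CPM with lactate added, 4.49 and 3.52 CPM with oxamate, 6.68 and 7.95 CPM in hypoxia and 2.34 and 2.12 CPM in normoxia, from 63 to 226 counts per library. The order of groups was that of CDH3, with hypoxia highest and normoxia lowest and no overlap. VIM rose 3.28-fold in hypoxia against normoxia (1.71 ± 0.18, adjusted p = 1.76e-08) and fell with oxamate against hypoxia (-0.87 ± 0.17, adjusted p = 8.49e-05). Lactate added to oxamate gave -0.44 ± 0.20, which did not pass (adjusted p = 0.0545), but the call was made with RLE scaling (-0.50, adjusted p = 0.0306) and with upper quartile scaling (-0.63, adjusted p = 0.00706), as well as with the stricter filter and without oxamate replicate 2 (-0.70) or lactate-added replicate 1 (-0.62). Against hypoxia the lactate-added level was lower, by -1.31 ± 0.18 (adjusted p = 1.04e-06). VIM-AS1 overlaps 12.4% of the VIM exon bases on the other strand and had 11.1% of its counts. The antisense RNA had 0.458 and 0.285 CPM with lactate added, 0.232 and 0.202 CPM with oxamate, 0.645 and 0.669 CPM in hypoxia and 0.558 and 0.569 CPM in normoxia. Its part in the VIM counts was not tested. The summed fibroblast markers were also highest in hypoxia, and of the 8 only COL1A1 passed the filter, while COL3A1, DCN, PDGFRA and THY1 were at 0. In bulk libraries, fewer cells with a transcript and less of it per cell cannot be told apart.

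FN1 (ENSG00000115414, chromosome 2:215360440-215436172, minus strand), a secreted matrix protein that integrins bind, had its own order of groups. It had 114 and 113 CPM with lactate added, 143 and 144 CPM with oxamate, 78.6 and 80.9 CPM in hypoxia and 51.9 and 51.4 CPM in normoxia. Replicates agreed closely and no groups overlapped. FN1 rose in hypoxia against normoxia (0.63 ± 0.042, 1.54-fold, adjusted p = 8.36e-12) and rose again with oxamate against hypoxia (0.85 ± 0.039, 1.80-fold, adjusted p = 5.69e-15), where CDH1, CDH3 and VIM fell. With lactate added to oxamate it fell by 0.34 ± 0.039 on the log2 scale (adjusted p = 6.69e-08), and it stayed above hypoxia (0.51 ± 0.040, adjusted p = 1.14e-10).

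**Figure D3:**
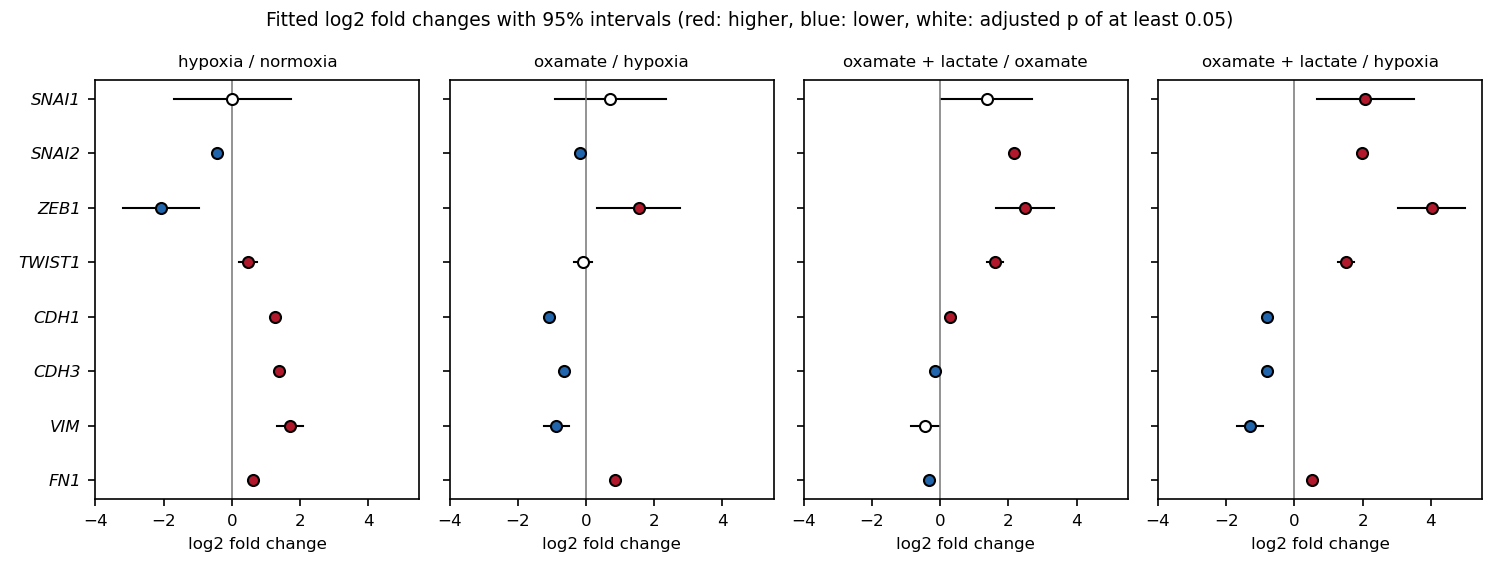
Fitted log2 fold changes (x axis) of the 8 tested genes in 4 comparisons, where oxamate and lactate were given in hypoxia, with 95% intervals as lines. Red points passed as higher, blue points passed as lower and white points did not pass, and the SNAI1 points against lactate-added libraries are shown with no test read from them. ZEB1 stands at -2.09 in hypoxia against normoxia and at 4.02 in lactate added against hypoxia, and CDH1 at 1.28 and -0.79 in those panels.

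Between genes, levels were compared per kilobase of exon, with all annotated exons of a gene joined. These lengths were 17315 bases for FN1, 5158 for VIM, 3392 for SNAI2 and 2033 for TWIST1. Lengths of the transcripts expressed here were not measured and may be shorter, so an order between genes depends on the lengths used. In the lactate-added libraries the means were 75.3 for CDH3, 52.1 for CDH1, 39.9 for SNAI2, 9.92 for TWIST1, 6.54 for FN1, 0.578 for VIM, 0.392 for SNAI1 and 0.334 for ZEB1, all in CPM per kilobase. In the normoxia libraries they were 51.1 for CDH3, 37.2 for CDH1, 13.5 for SNAI2, 2.52 for TWIST1, 2.98 for FN1 and 0.432 for VIM. By these lengths TWIST1 was above FN1 in both lactate-added libraries and below it in the other 6. By the same lengths SNAI2 was above VIM, FN1 and TWIST1 in all 8 libraries. The 2 cadherins were above every transcription factor in all 8. Thus a high level of CDH1 and CDH3 and of SNAI2 was found in the same libraries, with VIM about as low as 0.411 to 1.54 CPM per kilobase.

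The genes whose log2 CPM was most like that of each gene over the 8 libraries were found among 10935 or 10936 well expressed genes. As 8 libraries in 4 groups leave few independent points, the Pearson r is a measure of likeness only. SNAI2 was most like NDEL1 (r = 0.998), PLEKHA3 (0.997) and ZRANB1 (0.997), and ZRANB1 had 68.2 and 68.4 CPM with lactate added and 15.9 to 23.1 CPM in the other 6 libraries. TWIST1 was most like CA5B (0.996), CAMSAP3 (0.992) and SIK1 (0.989), of which SIK1 had 21.9 and 18.6 CPM with lactate added and 1.56 to 3.29 CPM elsewhere. ZEB1 was most like TMEM192 (0.972), LINS1 (0.971) and SPCS2 (0.969), and SNAI1 most like PKD1P6-NPIPP1 (0.896), PLEKHG5 (0.889) and CNTNAP3C (0.884). CDH1 was most like EPS8L1 (0.997), DLG4 (0.997) and ANO6 (0.997), and EPS8L1 had 32.9 and 33.2 CPM in hypoxia against 4.91 and 4.71 CPM in normoxia. CDH3 was most like TTLL3 (0.997), PTPRF (0.995) and ABHD4 (0.994), and VIM most like SPATA17 (0.989), LRRC42 (0.985) and COX20 (0.984). FN1 was most like the ribosomal protein genes RPS9, RPL11 and RPS3 (0.999 each), and RPS9 had 922 and 883 CPM with lactate added, 1147 and 1159 CPM with oxamate, 649 and 654 CPM in hypoxia and 429 and 430.5 CPM in normoxia. For CA5B, COX20, DLG4, LINS1, NDEL1, PKD1P6-NPIPP1, PLEKHG5, TTLL3 and ZRANB1 an overlapping gene had at least 10% of their counts, so their levels are less certain.

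Genes around these 10 were read from lists of pathway members, of which 177 of 235 were tested. Each list is given by its counts beside the shares of all tested genes: 36.7% rose and 36.8% fell in hypoxia against normoxia, 35.7% and 44.8% with oxamate against hypoxia, 33.2% and 31.7% with lactate added to oxamate, and 38.5% and 40.2% with lactate added against hypoxia. Median log2 fold changes of all tested genes in these comparisons were 0.02, -0.20, -0.02 and -0.05. Upper quartile scaling moved them by 0.11, -0.07, -0.19 and -0.26.

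Of the other transcription factors linked to EMT, 9 of 16 were tested. In hypoxia against normoxia 3 rose and 4 fell, with SOX9 at 1.04 ± 0.058, TCF3 (E2A) at 0.54 ± 0.045, the corepressor ZNF703 at -2.38 ± 0.11 and the forkhead factor FOXC1 at -1.20 ± 0.085. With oxamate against hypoxia 2 rose and 7 fell: ZNF703 (1.79 ± 0.11) and the chromatin protein gene HMGA2 (0.50 ± 0.069) rose, and SOX4 (-2.00 ± 0.15) and SOX9 (-0.95 ± 0.058) fell among others. With lactate added to oxamate 5 rose and 1 fell, and SOX9 was at 112 CPM on average, against 22.4 CPM with oxamate (2.32 ± 0.054). Under upper quartile scaling that count was 2 and 2. Against hypoxia 3 rose and 6 fell, with a median of -0.56, among them SOX9 (1.37 ± 0.049) and KLF8 (-1.67 ± 0.28).

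A list of transcription factors and splicing regulators linked to the epithelial state had 16 genes, MIR200CHG and MIR205HG included, and 15 were tested. The list does not sort its genes, RBFOX2 among them, by the direction in which they act on that state. In hypoxia 10 rose and 3 fell, with a median log2 fold change of 0.57. ELF3, an ETS factor of differentiating epithelia, averaged 268 CPM in hypoxia, against 46.9 CPM in normoxia (2.52 ± 0.038), and TP63, the master regulator of stratified epithelium, averaged 246 CPM in hypoxia, against 125 CPM in normoxia (0.98 ± 0.035). GRHL2 (-0.30 ± 0.054) and OVOL2 (-0.70 ± 0.14), known as repressors of ZEB1, fell in hypoxia. Their part in the ZEB1 level was not tested. With oxamate 2 rose and 10 fell, with ELF3 at -2.09 ± 0.037, TP63 at -1.62 ± 0.037 and KLF4 at 1.68 ± 0.079. Between lactate-added and oxamate libraries 10 rose and 2 fell, and ELF3 averaged 289 CPM, against 62.8 CPM with oxamate (2.20 ± 0.038). Against hypoxia 7 rose and 7 fell, among them KLF4 (2.63 ± 0.074) and the splicing factor RBFOX2 (-1.49 ± 0.045). The count with RLE scaling was 3 and 7 for oxamate, and with upper quartile scaling 4 and 9 for lactate added against hypoxia. The count of OVOL2 is uncertain, since the overlapping gene SNX5 had many times its counts.

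Among 16 catenins and other partners of cadherins, 13 were tested, and in hypoxia 9 rose and 4 fell. Plakoglobin (JUP, 1.31 ± 0.039) and p120-catenin (CTNND1, 0.76 ± 0.031), which bind cadherin tails, rose with CDH1 and CDH3, whereas beta-catenin (CTNNB1, -0.47 ± 0.032) and vinculin (VCL, -0.40 ± 0.037) fell. With oxamate 3 rose and 6 fell, with CTNND1 at -1.10 ± 0.032, vinculin at 1.34 ± 0.036 and the E-cadherin sheddase ADAM10 at -2.19 ± 0.054. With RLE scaling 6 rose and 6 fell. After lactate was added to oxamate 8 rose and 4 fell, among them afadin (AFDN, 1.56 ± 0.042) and vinculin (-0.83 ± 0.036). Against hypoxia 6 rose and 5 fell, and under upper quartile scaling 4 rose and 8 fell.

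Of 34 other members of the cadherin superfamily, 12 were tested. In hypoxia 7 rose and none fell, led by the planar polarity cadherins CELSR1 (1.37 ± 0.044) and CELSR2 (1.07 ± 0.045), and the other 5 did not pass. With oxamate 1 rose and 9 fell, with a median of -1.32: CELSR2 was at -2.10 ± 0.051, the giant cadherin FAT2 at -1.56 ± 0.037 and CDH24 at 0.65 ± 0.060. Lactate-added libraries had 4 higher and 4 lower genes against oxamate, among them FAT1 (0.51 ± 0.048) and CLSTN3 (-0.79 ± 0.074), and 2 higher and 6 lower under upper quartile scaling. FAT2 stayed low with lactate added, at 58.6 CPM, against 213 CPM in hypoxia (-1.86 ± 0.039), where 2 of the list rose and 9 fell. Under upper quartile scaling 0 rose and 9 fell there.

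Of 24 tight junction and polarity genes, 23 were tested. In hypoxia 16 rose and 5 fell, with claudins CLDN7 (1.39 ± 0.046) and CLDN4 (0.85 ± 0.035) among the higher and TJP1 (ZO-1, -0.43 ± 0.037) among the lower, as well as SCRIB, with 62.9 CPM in hypoxia, against 126 CPM in normoxia. With oxamate 5 rose and 16 fell, among them EPCAM at 0.95 ± 0.037 and CLDN4 at -1.66 ± 0.038. With lactate added 17 rose and 3 fell against oxamate, and CLDN4 averaged 578 CPM, against 80.3 CPM with oxamate (2.85 ± 0.038) and 254 CPM in hypoxia (1.19 ± 0.034). Upper quartile scaling left 13 higher and 5 lower. CLDN4 is known from mouse epithelial cells as a gene that Snail represses. Its level was highest in the lactate-added libraries, as was that of SNAI2. The part of SNAI1 or SNAI2 in the CLDN4 level was not tested. Against hypoxia 13 rose and 6 fell with lactate added, with a median of 0.52, and cingulin (CGN) was at -1.77 ± 0.065. Under upper quartile scaling 13 rose and 9 fell there.

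**Figure D4:**
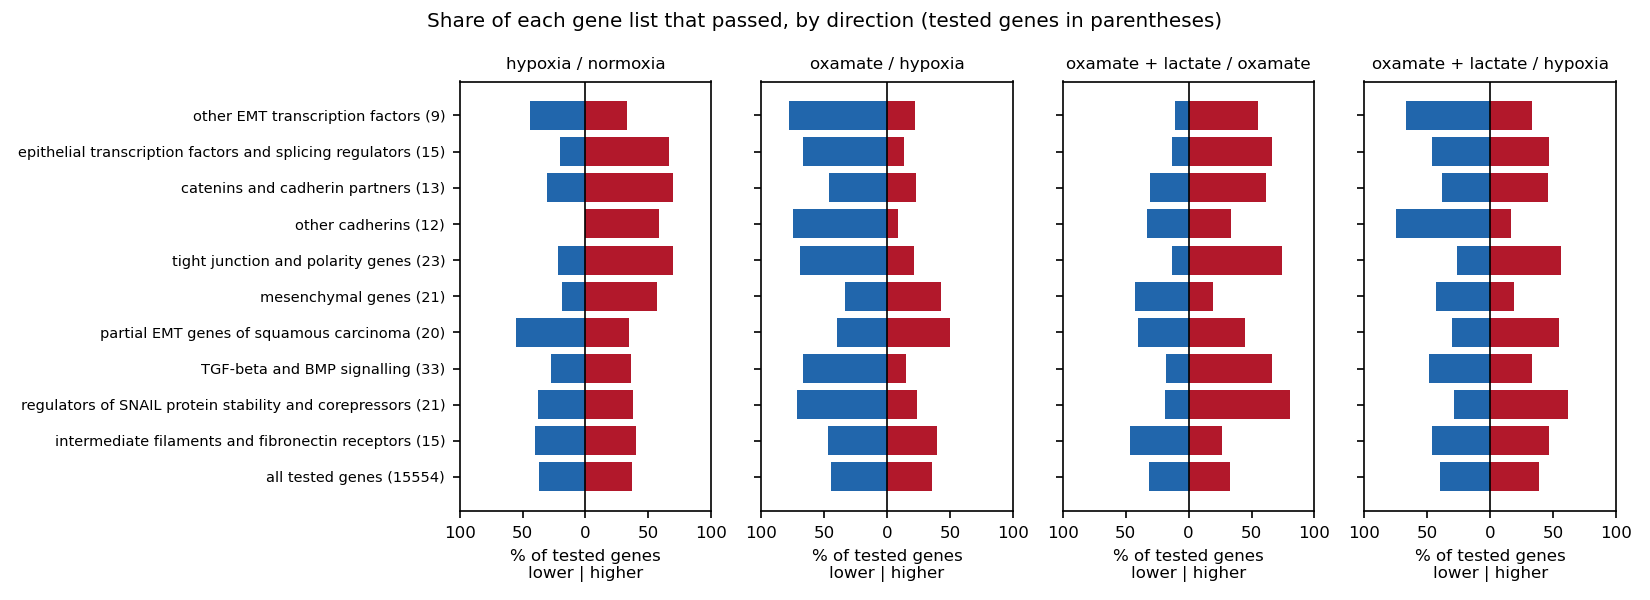
Percent of the tested genes of each list (number in parentheses) that passed as higher (red, right) or lower (blue, left) in each of 4 comparisons, where oxamate and lactate were given in hypoxia. The bottom row shows all 15554 tested genes. Bars of the junction genes turn from mostly right in hypoxia against normoxia, with 16 of 23 higher, to mostly left with oxamate, with 16 of 23 lower.

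Of 36 further mesenchymal genes, 21 were tested, and in hypoxia 12 rose and 4 fell. LOXL2, a lysyl oxidase that crosslinks collagen and is also known to bind SNAIL, averaged 393 CPM in hypoxia, against 53.6 CPM in normoxia (2.87 ± 0.045). The fibronectin receptor subunit ITGA5 averaged 170 CPM in hypoxia, against 35.9 CPM in normoxia (2.24 ± 0.047), whereas tenascin C (TNC, -1.94 ± 0.048) and the hyaluronan receptor CD44 (-0.90 ± 0.027) fell. With oxamate each of these 4 turned: ITGA5 fell by 3.33 ± 0.054 and LOXL2 by 2.24 ± 0.043 on the log2 scale, while TNC was at 2.45 ± 0.048 and CD44 at 2.00 ± 0.027. The list as a whole had 9 higher and 7 lower there. FN1 and ITGA5, a ligand and its receptor subunit, thus went opposite ways with oxamate. Relative to oxamate, lactate-added libraries had 4 higher and 9 lower, and ITGA5 rose by 1.52 ± 0.062. Upper quartile scaling gave 2 and 11 there. Against hypoxia 4 rose and 9 fell, among them CD44 (1.63 ± 0.027) and ITGA5 (-1.81 ± 0.047), and upper quartile scaling gave 4 and 14.

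All 20 genes listed for the partial EMT program of squamous carcinoma were tested. In hypoxia 7 rose and 11 fell, with galectin-1 (LGALS1) at 1.77 ± 0.039 and parathyroid hormone-like hormone (PTHLH) at -2.59 ± 0.053. With oxamate 10 rose and 8 fell, with PTHLH at 2.40 ± 0.054, the laminin gene LAMA3 at 1.56 ± 0.037 and the collagen prolyl hydroxylase P4HA2 at -1.79 ± 0.045. Lactate added to oxamate gave 9 higher and 8 lower, with ITGA6 at 0.85 ± 0.039, and against hypoxia 11 rose and 6 fell, with PTHLH at 1.97 ± 0.057. Upper quartile scaling gave 8 and 8 in hypoxia against normoxia and 9 and 8 against hypoxia.

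TGF-beta signalling induces SNAI and ZEB genes in many epithelia, and it was read together with BMP signalling from 33 genes, all tested. The list holds transducers and antagonists alike, so its counts give no direction of signalling. In hypoxia 12 rose and 9 fell, among them SMAD3 (1.17 ± 0.039), BMP7 (1.22 ± 0.057), the antagonist FST (-1.97 ± 0.11) and the SMAD corepressor SKI (-1.16 ± 0.054). With oxamate 5 rose and 22 fell. SMAD3, a transducer of TGF-beta receptors, averaged 25.4 CPM with oxamate, against 167 CPM in hypoxia (-2.71 ± 0.046), and TGFB2 was at -1.64 ± 0.053, while FST (2.13 ± 0.11) rose. In lactate-added against oxamate libraries 22 rose and 6 fell, and SMAD3 averaged 84.7 CPM, against 25.4 CPM with oxamate (1.74 ± 0.049). Against hypoxia 11 rose and 16 fell, with SMAD3 still lower (-0.98 ± 0.040) and FST higher (2.82 ± 0.10).

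Regulators of SNAIL protein stability and its corepressors had 21 tested genes of 22 listed. In hypoxia 8 rose and 8 fell, and under upper quartile scaling 10 and 6. With oxamate 5 rose and 15 fell, among them the corepressor subunit EZH2 (0.79 ± 0.050), the kinase PAK1 (0.66 ± 0.044) and the ubiquitin ligase component FBXO11 (-1.32 ± 0.059). With lactate added to oxamate 17 rose and 4 fell, and under upper quartile scaling 13 and 4. FBXO45, part of a ligase known to degrade EMT factors, averaged 176 CPM with lactate added, against 57.2 CPM with oxamate (1.62 ± 0.044) and 41.2 CPM in hypoxia (2.09 ± 0.045). Against hypoxia 13 rose and 6 fell, and upper quartile scaling gave 9 and 10.

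Of 23 genes for other intermediate filaments, linkers and fibronectin receptors, 15 were tested, and in hypoxia 6 rose and 6 fell. Upper quartile scaling gave 8 and 6 there. The linker plectin (PLEC) averaged 177 CPM in hypoxia, against 694 CPM in normoxia (-1.97 ± 0.037), and syndecan-1 (SDC1) was at -1.89 ± 0.039, whereas syndecan-4 (SDC4) was at 0.75 ± 0.033. With oxamate 6 rose and 7 fell, with TGM2, a transglutaminase that binds fibronectin, at 1.83 ± 0.038 and SDC1 at 1.48 ± 0.039. With lactate added to oxamate 4 rose and 7 fell, with SDC4 at 1.49 ± 0.034 and lamin B1 (LMNB1) at -1.83 ± 0.054. Under upper quartile scaling that count was 2 and 8. LMNB1 was also lower with lactate added than in hypoxia, at 20.2 CPM, against 114 CPM in hypoxia (-2.49 ± 0.051), where 7 rose and 7 fell. Of the list genes named above, an overlapping gene had at least 10% of the counts of CLDN7, FBXO11, LOXL2, OVOL2, TGFB2, TGM2 and VCL.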

How the data were processed

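The authors deposited 1 table of counts per gene, and the deposited values are whole numbers without normalization in 61517 rows, 46 of them second copies of pseudoautosomal genes. The submitters' processing notes name RSEM 1.3.3, STAR 2.7.8a, FastQC 0.11.9 and hg38/GRCh38 without a role, so the counts may be rounded RSEM estimates. The notes have neither strand setting nor annotation, both not given in the sources used here. RNA was enriched with oligo-dT beads, per the labels' protocols.

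The main test was run in edgeR 4.0.16, with limma 3.58.1, under R 4.3.3. The function filterByExpr with a minimum count of 10 left 15554 genes, scaled by TMM (factors 0.901 in lactate-added, 0.879 in oxamate, 1.10 in hypoxia and 1.15 in normoxia libraries). One robust quasi-likelihood model of 4 group means was fitted to all 8 libraries, with 4 residual degrees of freedom and two-sided F tests, and p-values were adjusted by Benjamini-Hochberg. Standard errors came from the F statistic. The method was tested on simulated data in which few genes changed, so scaling under changes as broad as those found here was not tested. Positions and exon lengths are from GENCODE 29, which held 94.8% of the gene identifiers.

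The 10 genes and all lists were chosen with earlier results of these data known. Named list genes are the 2 passing genes with the smallest p in each direction in the first 2 comparisons and 1 in the others, of which most are printed and 1 is not reported here. Likeness was the Pearson r of log2 CPM with a prior count of 2, among genes with a mean of at least 1 and no clone-based symbol. Sites were read from GENCODE 29 transcripts and microRNAs from a RefSeq table that held all 6. Alternatives were RLE and upper quartile scaling, no filter, a stricter filter (50 counts in 2 libraries), a block for the replicate number, DESeq2 1.42.0, testing for more than a 1.5-fold change, fits of 2 groups alone and leaving out each library. Scalings of the list counts were added after seeing the data.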

Additional observations from a re-analysis of the deposited data

How the results depend on the processing

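Over 32 results of single genes, 345 of 377 alternative values kept the direction and the side of the threshold, 21 lost a call, 6 gained one and 5 changed sign, and none of the 27 calls changed sign. These calls, and the counts of passing genes below, include SNAI1 with lactate added against hypoxia, which is not read as a test. Sign changes were those of SNAI1 in hypoxia against normoxia without normoxia replicate 1 (-0.03) and without hypoxia replicate 1 (-1.99), SNAI1 with oxamate against hypoxia without hypoxia replicate 2 (-0.069), and TWIST1 with oxamate against hypoxia in the fit of 2 groups alone (0.011) and without oxamate replicate 1 (0.052). Over left-out libraries these ran from -1.99 to 0.80, from -0.069 to 2.72 and from -0.13 to 0.052. The cause was not tested. The test against a fold change of 1.5 asks for larger effects and left 4 of 7 genes in hypoxia against normoxia and 3 of 6 with lactate added to oxamate. Over all genes it left 5726 of 11429 in hypoxia against normoxia, 8208 of 12525 with oxamate, 3818 of 10087 with lactate added to oxamate and 7398 of 12227 with lactate added against hypoxia. Leaving out 1 library gave 6 to 7, 4 to 6, 6 to 7 and 7 to 8 passing genes in these comparisons. With 1 library left in a group, that library is assumed to vary like the others. SNAI1 was too low for the stricter filter and for some fits of 2 groups alone, and ZEB1 for the fit of oxamate and hypoxia alone. Upper quartile scaling gave 4150 higher and 6340 lower genes with lactate added to oxamate, against 5160 and 4927 with TMM, and 4683 and 7693 with lactate added against hypoxia, against 5981 and 6246.

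Replicate numbers did not pair the samples: deviations of same-numbered libraries correlated between -0.0502 and 0.0118. With the replicate block 7, 6, 6 and 8 of the 8 genes passed, as without it, and 11301, 12463, 9981 and 12146 of all genes. The last count of 8 includes SNAI1, which was in the fit through the lactate-added libraries alone and is not read as a test. SNAI1, ZEB1, ZEB2 and CDH2 are limited by depth, since their group sums lay between 0 and 126 counts.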

Other observations

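KRT5, the basal keratin among the squamous markers, was chosen after its values were seen. It had 2190 and 2212 CPM with lactate added, 3489 and 3489 CPM with oxamate, 973 and 970.3 CPM in hypoxia and 1678 and 1677 CPM in normoxia. Its log2 fold change was -0.79 ± 0.025 in hypoxia against normoxia and 1.84 ± 0.025 with oxamate against hypoxia. The squamous markers moved in both directions. Of the 13, 6 rose in hypoxia against normoxia (TP63, KRT4, DSG3, DSC3, PKP1 and PERP) and 5 fell (KRT5, KRT14, KRT6A, KRT17 and KRT13). Of all tested genes 36.7% rose and 36.8% fell there. With oxamate against hypoxia 7 rose (KRT5, KRT14, KRT6A, KRT17, KRT13, DSC3 and PERP) and 6 fell, among them TP63 at -1.62, DSG3 at -1.54, PKP1 at -0.59 and SFN at -2.03. Of all tested genes 35.7% rose and 44.8% fell there. With lactate added 5 rose and 6 fell against oxamate, and 7 rose and 5 fell against hypoxia. All tested genes had 33.2% and 31.7% in the first of these and 38.5% and 40.2% in the other. Beside such shares nothing is read from the marker counts.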
